A study of Homo sapiens with 6 samples.

Results

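The regions described here are 1148 places, away from the ends of protein-coding genes, where FOSL2 and JUNB both had a called binding region and where FOSL2 ranked far higher than JUNB. They were drawn from 28166 shared distal pairs. A pair is a JUNB region and the FOSL2 region that overlaps it by at least 1 bp (the longest overlap where there were several), on the 22 autosomes, with the JUNB summit more than 1000 bp from either end of every protein-coding gene. Within these pairs the fold enrichment at the summit, the authors' ratio of signal over local background, was turned into a percentile for each factor separately. Pairs whose FOSL2 percentile exceeded the JUNB percentile by at least 0.40 were kept, and are called FOSL2-favouring. They made up 4.08% of the shared distal pairs and lay on 1146 FOSL2 regions. The same difference in the other direction was met by 732 pairs (2.6%), called JUNB-favouring.

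Binding was measured by chromatin immunoprecipitation and sequencing in HaCaT cells, an immortalised line of human skin keratinocytes grown in standard medium with serum and antibiotics, with no treatment or genotype contrast. There were 3 libraries for FOSL2 and 3 for JUNB, prepared by ChIPmentation, a protocol that inserts sequencing adapters into immunoprecipitated chromatin with a transposase. The antibodies were CST 19967 lot 2 for FOSL2 and Active Motif 39549 for JUNB, so a difference between the factors and a difference between the antibodies cannot be told apart. Each factor had 1 list of regions for its 3 libraries together, with 73751 autosomal regions for FOSL2 and 39317 for JUNB. No value below therefore has a replicate error, and the library depths are unknown. Intervals are 95% intervals (Wilson for shares, Newcombe for differences of shares, order statistics for medians) that cover counting error over regions only, and regions are not replicates. Beside a count of 0, the limit given is the share that 3 counts would make, not a Wilson bound.

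FOSL2 and JUNB are subunits of AP-1, a transcription factor made of a FOS-family and a JUN-family protein joined by their leucine zippers. FOS-family proteins do not form stable dimers with each other and bind DNA with a JUN-family partner, which need not be JUNB, whereas JUN-family proteins can also pair among themselves or with ATF proteins. The dimer reads the short palindrome-like element TGACTCA, known as the TPA response element, and most AP-1 binding lies in enhancers far from promoters. In epidermis AP-1 takes part in differentiation, wound repair and inflammation.

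Sequence could be examined where a summit lay in a RefSeq promoter window (250 bases before to 50 after a transcript start, build GRCh38.p14, whose chromosomes have the same coordinates as those of hg38). A JUNB summit of 10 FOSL2-favouring pairs lay in such a window, 6 of protein-coding genes and 4 of long noncoding RNA genes. The protein-coding starts lay inside the annotated span of their genes, which is why these pairs counted as distal. In 5 of the 10 windows the FOSL2 summit lay inside the window too. All of these 5 held TGACTCA on either strand (its reverse complement is TGAGTCA), and they are shown because they are the members with the element in a window that holds both summits. The match is in capitals, each sequence runs 5′ to 3′ along the strand of the transcript, and the 2 protein-coding windows are cut at the transcript start.
LOC124904434, chr1:159890092-159890175, + strand: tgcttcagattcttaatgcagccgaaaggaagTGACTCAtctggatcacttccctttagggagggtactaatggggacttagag
ACVR1, chr2:157838631-157838716, - strand: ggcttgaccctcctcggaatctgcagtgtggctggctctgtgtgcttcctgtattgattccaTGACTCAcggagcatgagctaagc
LOC102723825, chr2:240387760-240387848, - strand: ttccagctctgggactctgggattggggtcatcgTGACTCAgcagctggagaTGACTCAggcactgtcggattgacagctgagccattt
LOC105377297, chr4:77637030-77637156, - strand: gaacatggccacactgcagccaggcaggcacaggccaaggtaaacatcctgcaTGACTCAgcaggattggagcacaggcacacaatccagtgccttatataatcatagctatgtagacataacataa
SYT16, chr14:61927619-61927694, + strand: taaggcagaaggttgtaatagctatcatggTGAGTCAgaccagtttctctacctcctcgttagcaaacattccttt

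In these 5 windows the element lay 5 to 50 bp from the JUNB summit and 7 to 73 bp from the FOSL2 summit. The windows were picked for holding the element and both summits, so short distances follow in part from the choice. At the internal start of ACVR1, which encodes an activin and BMP type I receptor, the JUNB summit was 35 bp and the FOSL2 summit 30 bp from the centre of the match, with fold enrichments of 10.2 for FOSL2 and 4.79 for JUNB. The window of LOC102723825 held 2 matches, and each summit was 7 bp from the nearer one (fold enrichments 8.46 and 3.15). In the window of LOC124904434 the JUNB summit was 5 bp and the FOSL2 summit 18 bp away. SYT16, which encodes a synaptotagmin family protein, had the match 50 bp from the JUNB summit and 73 bp from the FOSL2 summit. The other 5 windows, at LOC105378891, LRRFIP2, RAI14, RPL6 and SLC1A5, held the JUNB summit but not the FOSL2 summit, and none of them held TGACTCA or its reverse complement. The LRRFIP2 window held the looser form TGANTCA 2 times, and the FOSL2 summit outside it was only 17 bp from the JUNB summit.

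Over all 10 windows of FOSL2-favouring pairs the share with TGACTCA was 50% (5 of 10, 23.7 to 76.3). It was 42.4% (212 of 500, 38.1 to 46.8) for windows holding the JUNB summit of any other shared distal pair, and 4.91% (1657 of 33725) for all autosomal windows in the table. With TGANTCA, which includes TGACTCA, the counts were 6 of 10, 238 of 500 (47.6%) and 2586 of 33725 (7.67%). The interval for the 10 windows spans the share of the other pairs, so no difference was detectable with this number. These windows cover few members and lie near transcript starts, so they do not describe the distal set as a whole.

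The members were chosen by the fold enrichments of both factors, which are given here as a description. FOSL2 fold enrichment in FOSL2-favouring pairs had a median of 9.96 (interquartile range 9.05 to 11.1, full range 7.27 to 19.1), against 7.84 in the 27018 other shared distal pairs. JUNB fold enrichment had a median of 4.03 (3.45 to 4.71, full range 2.04 to 5.81), against 5.47. The median percentile was 0.773 for FOSL2, with a lowest value of 0.404, and 0.249 for JUNB, with a highest value of 0.576. FOSL2 regions of the set had a median −log10 q of 75.7 (78.0 in the other pairs) and JUNB regions one of 8.04 (21.5). The median percentile difference was 0.478 and the largest 0.990. Pairs just inside the threshold lay near SVIL (11.1 for FOSL2 and 5.31 for JUNB), WDR47 (8.69 and 3.77) and ZBTB20 (9.63 and 4.43). Pairs just outside lay near COG2 (9.59 and 4.41), DIMT1 (9.73 and 4.51) and LOC107984449 (11.9 and 5.65), so no gap separated the set from the rest.

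**Figure D1:**
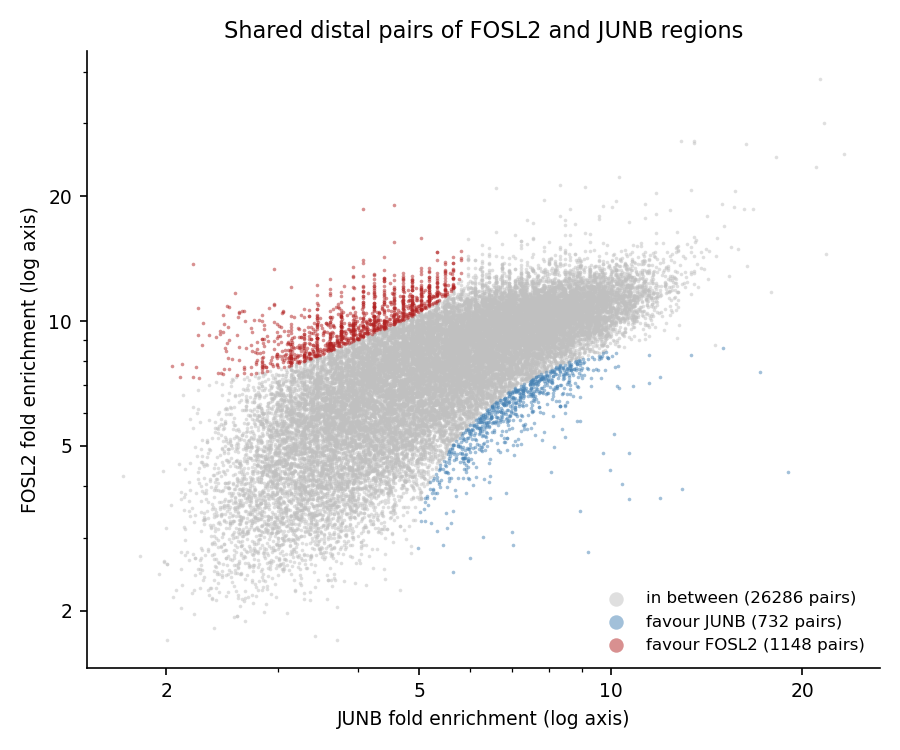
FOSL2 fold enrichment (vertical, log axis) against JUNB fold enrichment (horizontal, log axis), 1 point per shared distal pair: 1148 FOSL2-favouring (red), 732 JUNB-favouring (blue) and 26286 in between (grey). The red points form the upper left edge of 1 continuous cloud, between 7.27 and 19.1 for FOSL2 and between 2.04 and 5.81 for JUNB.

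The highest FOSL2 fold enrichment in the set lay near ZNF678, a zinc finger gene, at chr1:227496173-227496297, with a value of 19.1 for FOSL2 and 4.55 for JUNB. The region near SPATA31A6 followed (18.7 and 4.08, with summits 303 bp apart). The region near CCSER1 at chr4:91758543-91758923 came next (15.9 and 5.02). The pair inside CD8B, the gene of a T-cell coreceptor chain, had values of 15.5 and 4.55 with summits 328 bp apart, and the pair inside ZNG1B had 14.7 and 5.81. The FOSL2 regions near SPATA31A6 and in CD8B each carried another JUNB region, with its summit 5 bp from the FOSL2 summit and a fold enrichment of 8.64 and 8.01. In all 5 the JUNB background was at the lowest value it takes in the list, and near ZNF678 and SPATA31A6 and in ZNG1B the FOSL2 background was at its lowest value too, a property taken up below. By reads at the summit these were not the highest of the set: ZNF678 had 158 FOSL2 reads and the pair inside TSNARE1 258. The FOSL2 region near ZNF678 was only 200 bp wide and that in ZNG1B 380 bp, both far under the median of the set.

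Width separated the factors more than it separated the sets for FOSL2. FOSL2 regions of FOSL2-favouring pairs were a median of 846 bp wide (832 to 860; interquartile range 733 to 976), slightly narrower than the 894 bp (889 to 898) of the other pairs. Their JUNB regions were a median of 392 bp wide (378 to 405; interquartile range 284 to 504), against 620 bp (615 to 625) in the other pairs and 805.5 bp in JUNB-favouring pairs. The median ratio of FOSL2 to JUNB width was 2.08 in the set, 1.38 in the other pairs and 1.12 in JUNB-favouring pairs. The JUNB region lay wholly inside the FOSL2 region in 1069 FOSL2-favouring pairs (93.1%), against 79.7% of the others, a difference of 13.4 points (11.7 to 14.8). It covered a median of 48.1% of the FOSL2 region, against 72.2%. It was the wider of the pair in 4 members (0.348%), against 7.02% of the others. Width and fold enrichment come from the same peak calls, so the widths are not independent of the rule. FOSL2 regions were not narrower on other rankings. Pairs that favour FOSL2 by −log10 p or by summit reads had median FOSL2 widths of 1089.5 and 1216 bp.

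Summits of the 2 factors were close in most of the set, but a distinct minority lay far apart. The median distance between summits was 40 bp (36 to 43; interquartile range 14 to 82), against 30 bp in the other pairs. Summits lay within 50 bp of each other in 57.7% of FOSL2-favouring pairs and 67.7% of the others, a difference of -10.02 points (-12.9 to -7.13). They lay more than 250 bp apart in 127 members (11.1%, 9.38 to 13.0), against 2.46% of the others.

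That minority had 1 main form: a wide FOSL2 region carrying 2 or more JUNB regions, of which the member was the weak one. Such FOSL2 regions held 113 FOSL2-favouring pairs (9.84%, 8.25 to 11.7), against 416 of the other pairs (1.54%), a difference of 8.30 points (6.70 to 10.2). In 112 of the 113, another JUNB region on the same FOSL2 region had both the higher JUNB fold enrichment and the summit nearer to the FOSL2 summit. The median JUNB fold enrichment was 2.90 for the member and 6.79 for the other region, and the median summit distance was 666 bp for the member and 27 bp for the other region. For 109 of the 113 the other pair was itself between the thresholds (a percentile difference under 0.40 in either direction). Each FOSL2 region carries 1 fold enrichment, which is the value at its summit, and in these pairs that summit is not where the listed JUNB region lies. The FOSL2 regions concerned had a median width of 1323 bp and the JUNB regions 244 bp. At SLC1A5, the gene of a glutamine transporter, the JUNB region at chr19:46787261-46787436 was 176 bp wide with its summit 815 bp from that of the 1325 bp FOSL2 region (fold enrichments 2.12 and 7.88). The widest FOSL2 region of the set, inside HTATIP2, spanned 2032 bp, and its member JUNB summit lay 790 bp from the FOSL2 summit.

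Of the 10 largest percentile differences, 8 were of this form. They included the largest, inside TSNARE1, where FOSL2 had 13.7 and JUNB 2.20, with summits 557 bp apart. The pair inside DIP2C at chr10:324546-324783 had 11.7 and 2.56 and overlapped the FOSL2 region by only 48 bp. Those near TUT4, an RNA uridylyltransferase gene (10.8 and 2.51), and near LIMK1, which encodes a kinase of cofilin (10.99 and 2.95), had summits 412 and 600 bp apart. The 2 exceptions lay outside genes with a single JUNB region and close summits, and both had JUNB background at its lowest value. The pair near POU1F1, a pituitary transcription factor gene, at chr3:87433377-87433645 had 12.1 and 3.14 with summits 9 bp apart. The pair near LPCAT1, a lysophospholipid acyltransferase gene, at chr5:1599570-1599808 had 12.2 and 3.45 with summits 41 bp apart.

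The remaining 1035 members had a single JUNB region under the FOSL2 region and shared most of its centre. Their median summit distance was 34 bp, against 30 bp for the 26602 other pairs of this kind, and 1.45% of their summits lay more than 250 bp apart, against 1.93%. Median widths were 823 bp for FOSL2 and 406 bp for JUNB, so the JUNB regions were narrow here as well (622 bp in the other pairs of this kind).

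**Figure D2:**
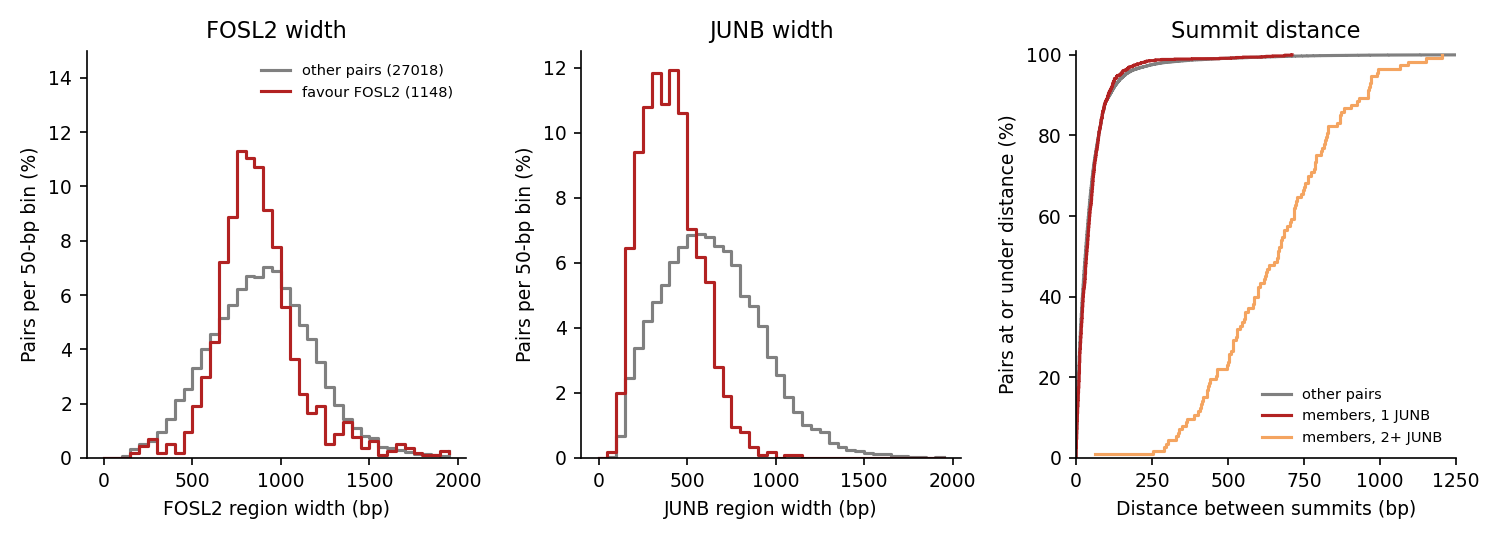
Widths of FOSL2 regions (left) and JUNB regions (middle) as the share of pairs per 50-bp bin, for FOSL2-favouring pairs (red) and other shared distal pairs (grey), with wider regions in the last bin, and cumulative summit distance (right, bp). The JUNB curve of the set is shifted to narrow widths (median 392 against 620 bp), and summits far apart are found mainly in members on FOSL2 regions with 2 or more JUNB regions (orange).

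Over all members, whether summits lay inside a protein-coding gene did not separate the set. Inside a gene lay 573 of 1148 JUNB summits (49.9%, 47.0 to 52.8), against 50.4% in the other pairs, a difference of -0.505 points (-3.45 to 2.44), and 47.8% in JUNB-favouring pairs. With JUNB background above its lowest value and pairs ranked again, the share inside genes was 54.0% (50.5 to 57.4). For pairs that favour FOSL2 by −log10 p it was 54.4% (48.2 to 60.5), and by summit reads 56.8% (48.5 to 64.8). Exons and introns were not separated.

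Ranked by fold enrichment, FOSL2-favouring pairs lay farther from gene ends. No greater distance was found when ranked by −log10 p or by summit reads. The median distance from the JUNB summit to the nearest protein-coding gene end was 44698 bp (40129 to 51813), against 33014.5 bp (32300 to 33761) for the other pairs and 29461.5 bp for JUNB-favouring pairs. It was 27812.5 bp (22713 to 35010) for the pairs that favour FOSL2 by −log10 p and 29299 bp (21739 to 37938) for those by summit reads. Both intervals span the 33014.5 bp, which belongs to the pairs left by the fold enrichment ranking. More than 100 kb from a gene end lay 31.4% of the set, against 23.3% of the others, a difference of 8.18 points (5.51 to 10.97). More than 500 kb away lay 68 members (5.92%), against 2.66%. Examples were a pair 1149054 bp from the nearest end of DSC3, the desmosomal cadherin gene it is assigned to, and one 1444132 bp from CADM2, a synaptic adhesion gene. Pairs near gene ends were less frequent: 17.9% of the set and 22.9% of the others lay within 10 kb. Read by distance, the FOSL2-favouring share was 2.75% (2.04 to 3.70) of pairs 1 to 2.5 kb from an end, 4.15% at 50 to 100 kb and 8.64% (68 of 787, 6.87 to 10.8) past 500 kb. Without chromosome 4 it went from 2.74% to 8.12%.

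**Figure D3:**
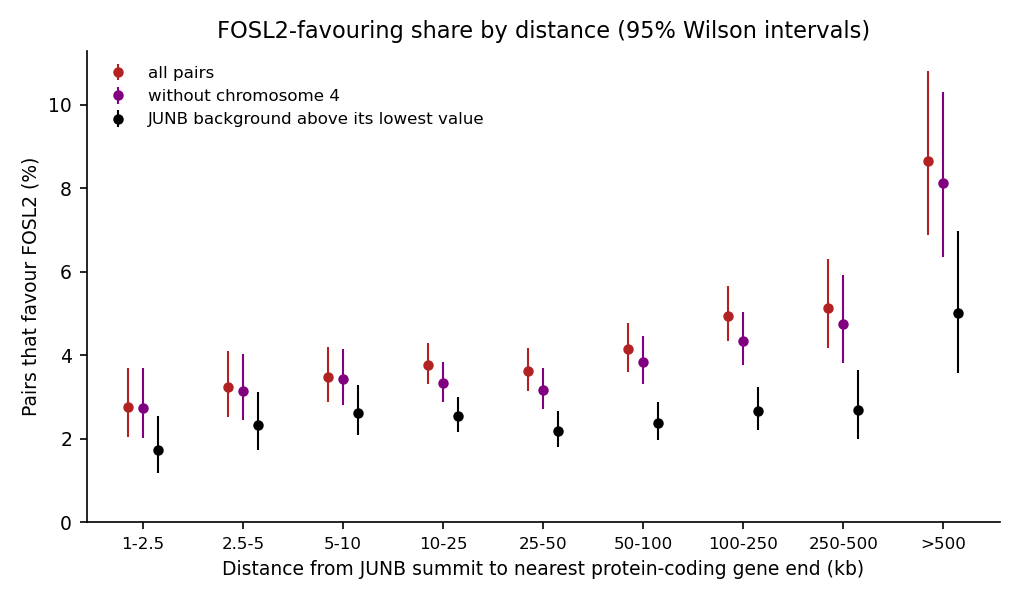
Share of shared distal pairs that are FOSL2-favouring (vertical, percent, with 95% Wilson intervals) by distance of the JUNB summit to the nearest protein-coding gene end (horizontal, kb), for all pairs (red), without chromosome 4 (purple) and with JUNB background above its lowest value (black). The share rises from 2.75% to 8.64% over all pairs and from 1.73% to 5.01% with background above its lowest value, where it lies between 2.19% and 2.70% from 2.5 to 500 kb.

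The set was sparse along the genome. Another shared distal pair lay within 50 kb of 58.4% of FOSL2-favouring pairs, against 80.5% of the others (difference -22.1 points, -25.1 to -19.3) and 92.6% of JUNB-favouring pairs. Another FOSL2-favouring pair lay within 50 kb of 57 members (4.97%), close to the 4.73% of other pairs that had one. Members had fewer shared distal pairs of any kind within 50 kb, a mean of 1.19 against 2.26. The close shares are not adjusted for this, so they do not show that members were unclustered. The most crowded member was at PSMD12, a proteasome regulatory subunit gene, at chr17:67339326-67339626, with 2 further members within 50 kb. All 3 shared distal pairs assigned to PSMD12 were FOSL2-favouring, with FOSL2 values of 10.8, 8.55 and 9.14 and JUNB values of 4.91, 3.48 and 3.80.

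Chromosome 4 held far more of the set than its number of pairs gives. There 139 of 972 shared distal pairs were FOSL2-favouring (14.3%, 12.2 to 16.6), against 1009 of 27194 (3.71%) on the other autosomes. The next shares were 6.77% on chromosome 21, 6.65% on chromosome 22, 6.45% on chromosome 6 and 5.63% on chromosome 3, and the lowest 1.79% on chromosome 20. In each of its 19 stretches of 10 Mb with at least 20 pairs, the share was between 7.69% and 22.4%, above that of all pairs. The lowest, 3 of 39 pairs (2.65 to 20.3), had an interval that reached under the share of all pairs. Of 257 such stretches on the other autosomes, 108 were above that share, the highest at 26.5%. JUNB-favouring pairs were 1.65% of the pairs on chromosome 4. On chromosome 3 the part up to 90 Mb had 65 of 561 pairs (11.6%) and the rest 43 of 1356 (3.17%), a split chosen after the values were seen. Chromosome 9 had 2.86% in all, but 11.1, 14.7, 9.23 and 10.9% in its first 4 stretches of 10 Mb, also picked afterwards.

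The lowest JUNB background moved with these places. Inverting the deposited fold enrichment and −log10 p, with a pseudocount of 1 read, returned a whole number of reads (or fragments) at the summit and a local background for all 39317 JUNB regions and 73749 of 73751 FOSL2 regions, within a relative 1e-05. The background has a floor, 5.37 reads for JUNB and 7.35 for FOSL2, which 7.64% of JUNB and 16.9% of FOSL2 regions hit. JUNB background was at its floor in 499 FOSL2-favouring pairs (43.5%, 40.6 to 46.4), against 5.97% of the others, a difference of 37.5 points (34.6 to 40.4). On chromosome 4 it was at the floor in 478 of 972 pairs (49.2%), and on chromosome 3 in 41.7% of pairs up to 90 Mb and 0.959% beyond. In the first 4 stretches of chromosome 9 it was at the floor in 41.7, 61.8, 35.4 and 48.4% of pairs. On the floor, 136 of 478 chromosome 4 pairs (28.5%, 24.6 to 32.7) were FOSL2-favouring, and 363 of 1635 pairs elsewhere (22.2%, 20.3 to 24.3). Above the floor the shares were 3 of 494 on chromosome 4 (0.607%, 0.207 to 1.77) and 646 of 25559 elsewhere (2.53%). The high share on chromosome 4 was thus found only among pairs with JUNB background at its floor. Background is part of the fold enrichment that chose the pairs, and what sets it along chromosomes was not tested.

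**Figure D4:**
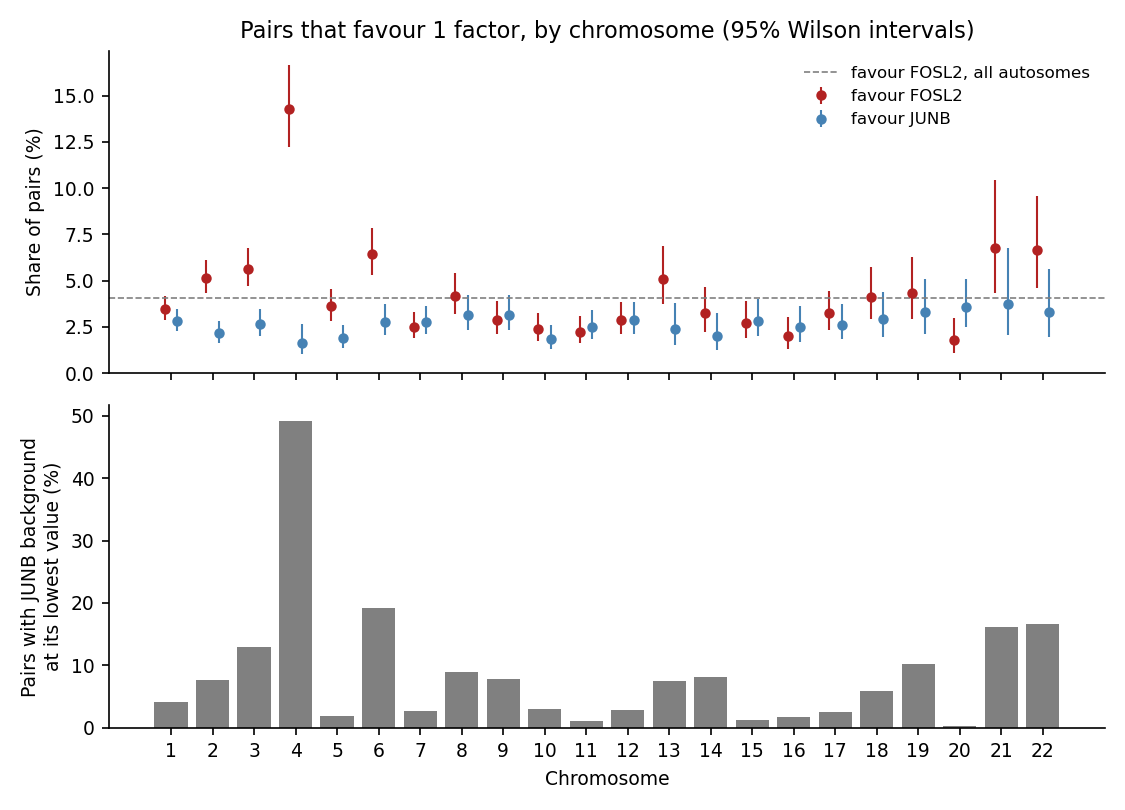
Top: share of shared distal pairs (percent, 95% Wilson intervals) that are FOSL2-favouring (red) or JUNB-favouring (blue) on each autosome, with the FOSL2-favouring share over all autosomes dashed. Bottom: share of pairs with JUNB background at its lowest value. Chromosome 4 stands highest in both red share (14.3%) and lowest-background share (49.2%).

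Reads at the summit, before division by background, gave a further view of the set. FOSL2-favouring pairs had a median of 116 FOSL2 reads (range 62 to 383), fewer than the 148 of the other pairs, and 28 JUNB reads (15 to 108), against 55. The median ratio of FOSL2 to JUNB reads was 4.12 (4.08 to 4.17), against 2.54 in the other pairs and 1.75 in JUNB-favouring pairs. FOSL2 background was 10.5 reads, against 17.2, and JUNB background 5.71, against 8.996. Reads and background are the parts of the fold enrichment that chose the pairs, so these medians are a description. The level of reads depends on the depth of each factor's libraries, so only the differences between sets of pairs are read here. With JUNB background above the floor, the 649 members had a median read ratio of 4.31 and lay a median of 36030 bp from a gene end (30111 to 40982), against 32496.5 bp for the other pairs, an interval that spans the value of the others. In those members 54.1% of summits were inside genes and 70.6% had another shared distal pair within 50 kb, against 82.1% of the others.

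**Figure D5:**
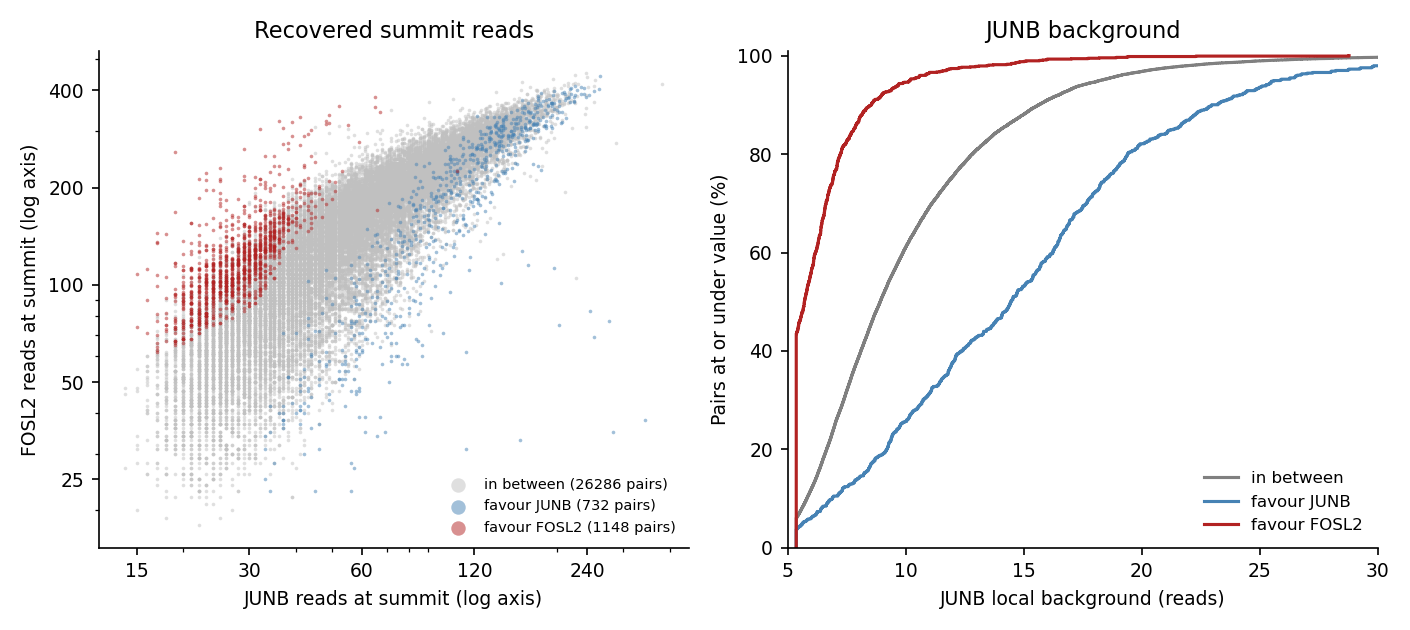
Left: reads recovered at the FOSL2 summit (vertical, log axis) against the JUNB summit (horizontal, log axis), 1 point per shared distal pair, colours as in the fold enrichment plot. Right: cumulative share of pairs (percent) by JUNB local background (reads). The set has a median of 116 FOSL2 and 28 JUNB reads, and 43.5% of it starts at the lowest background, against 3.69% of JUNB-favouring pairs.

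Other measures of strength called far fewer pairs, and called more of them JUNB-favouring than FOSL2-favouring. Ranked by the deposited −log10 p, 250 pairs favoured FOSL2 by at least 0.40 (0.888%), of which 211 were in the set, 18.4% of it and 84.4% of the 250. In the other direction 421 pairs favoured JUNB. Ranked by summit reads, 139 pairs favoured FOSL2 (0.494%), of which 119 were in the set, 10.4% of it and 85.6% of the 139, and 349 pairs favoured JUNB. By fold enrichment the order was the opposite, with 1148 and 732. The −log10 p and the reads come from the same libraries and are not independent of the fold enrichment. On chromosome 4 the share favouring FOSL2 was 1.44% by −log10 p, against 0.868% elsewhere, and 0.514% by reads, against 0.493%.

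The nearest protein-coding gene, the one holding the JUNB summit or otherwise the one with the nearest end, was 1 of 1030 genes, out of 8884 that were nearest to any shared distal pair. Of these, 919 had 1 FOSL2-favouring pair, 104 had 2 and 7 had 3: CADM2, CDYL, GMDS, LRBA, MEIS1, PSMD12 and SUCLG1. LRBA, a gene of vesicle trafficking on chromosome 4, had 3 of 3 pairs in the set, with FOSL2 fold enrichments of 12.5, 13.9 and 8.15 and JUNB values of 4.40, 5.50 and 3.14. MEIS1, a homeobox gene, had 3 of 14. JUNB background was at its floor in all 3 members of CADM2, CDYL, GMDS and LRBA. It was above the floor in all members of MEIS1, PSMD12 and SUCLG1. For 65 members, among them pairs of LRBA and GMDS, the nearest gene end belonged to a gene other than the one assigned. A nearest gene is a position and not a shown target.

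Among pairs assigned to genes of keratinocyte biology and its signalling, the FOSL2-favouring share by fold enrichment was under that of all shared distal pairs. Over 12 lists of such genes (319 on the autosomes), 22 of 1124 pairs were FOSL2-favouring (1.96%, 1.30 to 2.95), against 4.08% over all shared distal pairs, and 55 were JUNB-favouring (4.89%, 3.78 to 6.32), against 2.6%. Their JUNB background was at the floor in 2.58% of pairs, against 6.88% of all shared distal pairs inside genes and 8.14% of those outside. Above the floor, 646 of 25559 pairs outside chromosome 4 (2.53%) and 3 of 494 on it (0.607%) were FOSL2-favouring. The FOSL2-favouring interval of the lists spans the 2.53%. Of the same pairs above the floor, 691 of 25559 (2.70%) and 14 of 494 (2.83%) were JUNB-favouring. Both shares are under the JUNB-favouring interval of the lists. Shares of the lists were not recomputed above the floor or on the other rankings. Over 5 lists of markers of other cell types and housekeeping genes, 10 of 195 pairs were FOSL2-favouring (5.13%, 2.81 to 9.18), an interval that spans the overall share. No difference between lists was tested.

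Among single lists, only the basal-layer and adhesion genes had an interval wholly under the 4.08% of all shared distal pairs. They had 0 of 116 pairs in the set, which allows a share of up to 2.59% (Wilson upper bound 3.21%), and 7 JUNB-favouring pairs. That bound is above the share of 2.53% outside chromosome 4 among pairs with JUNB background above its floor. The list was 1 of 17 looked at. The intervals of all other lists spanned the overall share. Cornified envelope genes had 0 of 26 (up to 11.5%) and keratinocyte inflammation genes 0 of 60 (up to 5%). Suprabasal genes had 2 of 108, 1 inside DSC2 and 1 that lay 1149054 bp from DSC3. Both are desmocollin genes, whose products are cadherins of desmosomes. The pair inside DSC2 at chr18:31064063-31064443 had fold enrichments of 10.1 for FOSL2 and 4.69 for JUNB with summits 32 bp apart. Stress keratin and wound repair genes had 1 of 72, near TNC, the gene of the matrix protein tenascin-C (7.48 and 2.76).

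Signalling lists had between 1 and 5 pairs in the set. EGF receptor and MAPK response genes had 5 of 204, assigned to 4 genes. Among them was a pair 136033 bp from BTC, which encodes the EGF receptor ligand betacellulin, at chr4:74608588-74608902. That pair had 11.1 for FOSL2 and 4.40 for JUNB, with JUNB background at its floor. YAP and TEAD genes had 3 of 115. One lay near CCN2, the gene of a matricellular growth factor, at chr6:131995960-131996298 (12.5 and 4.87, at the floor). The others lay near FSTL1 (9.99 and 3.99) and TEAD1, a DNA-binding partner of YAP (9.79 and 4.40).

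TGF-beta pathway genes had 3 of 136 pairs in the set, 1 of them at the receptor gene ACVR1 shown above. The others were assigned to the ligand genes BMP4 (9.83 and 4.18, 207309 bp away) and INHBA (9.27 and 3.98, 112143 bp away). AP-1 and related genes had 3 of 68. They were ATF7, a partner of JUN proteins, at chr12:53530864-53531283 (9.87 and 3.88), BACH2, a bZIP repressor (8.78 and 3.09, on a FOSL2 region with 2 JUNB regions), and MAF (8.76 and 3.64). Wnt genes had 1 of 62, near CTNNB1, which encodes beta-catenin, at chr3:41158985-41159482 (11.5 and 4.25, with summits 860 bp apart and another JUNB region of fold enrichment 9.07 nearer the FOSL2 summit). Cytokine receptor genes had 1 of 61, 154233 bp from IL20RB, a receptor subunit for IL-20 family cytokines (10.96 and 5.18, at the floor). Genes at atopic dermatitis loci had 3 of 116, near or in FAM13A at chr4:88976511-88977018 (11.5 and 4.08, at the floor), PTPRK (9.90 and 3.97) and ZBTB10 (9.15 and 3.61, at the floor).

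Marker genes of other cell types also had pairs, at shares whose intervals spanned the overall 4.08%. Fibroblast markers had 4 of 47 (8.51%, 3.36 to 19.9), with 2 at COL5A2, a fibrillar collagen gene, and 1 each at FBLN1 and PDGFRA. The member at FBLN1 had its summit 1068 bp from that of FOSL2, and another JUNB region of fold enrichment 8.39 lay nearer. T-cell markers had 3 of 54, at CD2, CD28 and CD8B, neuronal markers 2 of 57, at RBFOX3 and SYT1, and melanocyte markers 1 of 14, at MITF. Housekeeping genes had 0 of 23 (up to 13.0%). These are positions of binding and not levels of expression, which were not measured.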

How the data were processed

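The deposited lists are the authors' narrow peaks, 1 per factor for 3 libraries. The deposited whole-number score was not used. The authors' fold enrichment is a linear ratio of signal over background, and −log10 p and −log10 q were read as deposited. The deposited summit offset, counted from 0, gave summit positions. The submitters' processing notes name build hg38 and the tools MACS2, Bowtie2, Picard 1.89, SAMtools 1.8 and deepTools. The sources used here do not give their order and options, the control or the rule combining libraries. Coordinates are given from 1.

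Pairs, percentiles, widths and distances were computed in Python 3.11.15 with NumPy 2.4.6, pandas 2.3.3 and SciPy 1.17.1. Genes are the 19122 autosomal protein-coding genes of the RefSeq table of GRCh38.p14, and of 417 genes in 17 lists 408 matched one of them. Promoter sequences are RefSeq's, same build, and hold no chromosome 8 windows. Motif shares at summits over the genome were planned and were not run, since genome sequence was not used here. Summit reads were recovered as the whole number n for which fold enrichment equals (n + 1)/(background + 1) and −log10 p is the Poisson upper tail. The pairing and recovery code was tested on simulated data. No test was run over the members, since the fold enrichments chose them and there are no replicate values.

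The members, lists and comparisons were chosen with earlier results of these data known. Named are the 10 pairs of largest percentile difference, the 5 of highest FOSL2 fold enrichment, 3 each side of the threshold, the most crowded, the 2 with the widest FOSL2 regions, and at most 3 for each keratinocyte or signalling list. SLC1A5, genes with 3 members, sequence examples and markers of other cell types were named after their values were seen. Some genes selected by this rule are left out.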

Additional observations from a re-analysis of the deposited data

How the results depend on the processing

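The number of pairs, both widths, the summit distance, the distance to a gene end and the shares inside genes, on chromosome 4 and on FOSL2 regions with several JUNB regions were recomputed under 13 alternatives (the chromosome 4 share under the 12 that keep it), of which 3 (ranking by summit reads, leaving out chromosome 4, JUNB background above its floor) were chosen after seeing the data. The count of 1148 became 2463 and 473 with a percentile difference of 0.30 and 0.50, 250 ranked by −log10 p and 139 by summit reads. In the order −log10 q of at least 10 in both lists, 1 region of each factor per pair, reciprocal overlap of 50%, summits within 100 bp and JUNB background above its floor, the median FOSL2 width of 846 bp became 895, 824, 825, 823 and 877 bp. In that order the JUNB width of 392 bp became 512, 407, 521, 408 and 421 bp, and the share on FOSL2 regions with several JUNB regions of 9.84% became 1.51, 0, 0.126, 0.106 and 14.4%. The summit distance of 40 bp became 30, 34, 34 and 29 bp under the first 4 of these. With differences of 0.30 and 0.50, JUNB width was 429 and 350 bp, the several-region share 5.60 and 16.7% and the chromosome 4 share 21.2 and 7.41%. The summit distance was 50 bp at 0.50. Ranked by −log10 p and by summit reads, FOSL2 width was 1089.5 and 1216 bp, JUNB width 356.5 and 296 bp, summit distance 364.5 and 581 bp, the several-region share 50 and 68.3%, the share inside genes 54.4 and 56.8%, the distance to a gene end 27812.5 and 29299 bp and the chromosome 4 share 1.44 and 0.514%. Both distances to a gene end are under the 33014.5 bp of the other pairs in the report, but their intervals (22713 to 35010 and 21739 to 37938) span it. The greater distance from genes was thus not found on either ranking, and a smaller one was not shown. Those other pairs are the ones left by the fold enrichment ranking. Both FOSL2 widths are above the 894 bp of the same other pairs, the reverse of the direction by fold enrichment. Other values were not recomputed, except where the report gives them without chromosome 4 or above the floor. Above the JUNB background floor, after ranking again, the chromosome 4 share was 1.01%, the share inside genes 54.0% and the distance to a gene end 37304 bp. The chromosome 4 share of 14.3% was 8.73% with a reciprocal overlap of 50%. The cause of these shifts was not tested, except that a share of 0, 0.126 or 0.106% follows from requiring 1 region per pair, overlap of both regions or close summits. No paired analysis was possible because each factor has 1 list for its 3 libraries, and for the same reason no library could be left out. Library depth is unknown, which limits every comparison of levels between factors.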
